A study of Mus musculus with 2 samples.

Results

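NF-κB genes were examined in mDE6, an epithelial line of mouse odontogenic origin, by using 1 array of control cells and 1 array of cells treated for 6 h with CHIR99021, an inhibitor of GSK-3 that activates the β-catenin pathway. The set held 10 genes of the 37074 distinct gene names on the array, chosen by name as subunits of NF-κB (Nfkb1, Nfkb2, Rela and Relb), inhibitors (Nfkbia, Nfkbib and Nfkbie), feedback and survival genes (Tnfaip3 and Birc3) and a cytokine target (Il6). Every non-control probe whose gene name equalled one of these names was used, which gave 21 probes. The labels put the control in DMSO, whereas the paper calls the control cells untreated, and the dose of CHIR99021 is 5 mM in the labels and 5 μM in the paper. A human array is named in the paper, but the deposited files carry a mouse design with coordinates in build mm9. Both groups were the same line, and the labels name no genetic change in it. Each condition had 1 array, so no difference has a replicate check and no statistical test was possible. Both arrays lay on 1 slide, and the place on the slide and the treatment cannot be told apart.

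NF-κB is a dimer of proteins that share the Rel homology domain, and it is held in the cytoplasm of resting cells by IκB proteins. Signals from cytokine receptors activate the IκB kinase complex, IκB is tagged with ubiquitin and degraded, and the dimer enters the nucleus, where it raises the transcription of inflammatory and survival genes and also of its own inhibitors, which closes a feedback loop. In the developing tooth, the ectodysplasin receptor of the dental epithelium signals through NF-κB, and mice that lack this signal have misshapen molars.

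On both arrays all 21 probes of the 10 genes carried the flag by which the scanner software marks a spot as well above background. None was saturated, and none lay on an uneven spot. Such a spot had pixels that varied more than the 99th percentile of spots well above background in rows up to 192 of its array. On each array 59305 spots of 56605 probes were read, of which 49.8% were well above background in control and 48.3% in CHIR99021-treated cells, and 18837 gene names had at least 1 probe well above background on an array. Markers of the labelled cell type were only partly present. Of 11 markers of odontogenic or oral epithelium, 5 were well above background on each array, among them Trp63 and Pitx1 on both. They were not the same 5, since Krt18 was well above background in control cells alone, at 25.7 against 20.4, and Krt5 in CHIR99021-treated cells alone, at 165.2 against 5.51. The defining epithelial genes Krt8, Krt19, Cdh1 and Epcam were well above background on neither array. Of 10 markers of mesenchyme, 9 were well above background on both arrays, with intensities of 122887 in control and 116351 in CHIR99021-treated cells for Col1a1. Of 10 macrophage or leukocyte markers, 8 were well above background in control and 6 in CHIR99021-treated cells, with Adgre1 and Tyrobp on neither array. The signal summed over a list, each array divided by its 75th percentile, was 9.49 in control and 10.7 in CHIR99021-treated cells for the epithelial markers, 980.3 and 920.3 for the mesenchymal markers, and 21.2 and 19.4 for the macrophage or leukocyte markers. The part of cell composition in the values below was not tested, and in a bulk sample fewer cells of a type and less RNA per cell cannot be told apart.

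The promoters of these genes were searched for the κB motif, the DNA element that NF-κB dimers bind, because several of the genes are known as targets of the factor they regulate. The motif was searched as GGGRNNYYCC on both strands, where R is A or G, Y is C or T and N is any base. RefSeq promoter windows of build GRCm38.p6, which run from 250 bases before to 50 bases after a transcription start, were found for 8 of the 10 genes, Nfkb1 and Relb having no entry. The stretches with a match upstream of the start are shown for the 5 genes that had one. They read 5′ to 3′ along the strand of the gene, with the bases of a single match in capitals in each. For Nfkb2 the first of its annotated starts is shown. A further Nfkb2 match there, at bases -38 to -29 from the start, overlaps the distal match and is not marked. Bases of a neighbouring match within a stretch are in lower case.

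Il6, chr5:30013050-30013099, plus strand: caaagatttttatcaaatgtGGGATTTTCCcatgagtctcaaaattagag
Nfkbia, chr12:55492648-55492696, minus strand: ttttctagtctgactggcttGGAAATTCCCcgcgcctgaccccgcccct
Nfkbie, chr17:45555574-45555623, plus strand: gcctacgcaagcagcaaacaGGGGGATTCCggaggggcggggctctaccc
Tnfaip3, distal match, chr10:19015506-19015555, minus strand: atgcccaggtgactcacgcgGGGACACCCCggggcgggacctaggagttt
Tnfaip3, proximal match, chr10:19015411-19015442, minus strand: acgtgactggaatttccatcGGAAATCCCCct
Nfkb2, distal match, chr19:46304678-46304727, plus strand: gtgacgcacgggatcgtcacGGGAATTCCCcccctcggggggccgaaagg
Nfkb2, proximal match, chr19:46304706-46304736, plus strand: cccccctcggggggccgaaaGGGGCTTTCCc

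Counted in bases from the start, with negative positions upstream, the match of Il6 lay at -44 to -35, that of Nfkbia at -29 to -20 and that of Nfkbie at -106 to -97. In Tnfaip3 the distal match lay at -125 to -116 and the proximal match at -12 to -3. The windows of Nfkb2, which has 3 annotated starts, held 5 distinct matches, some of them overlapping. Of the 11 windows of these genes, 7 held a match on either strand, beside 8.46% of all 32851 promoter windows of the table. Of these 7, 3 are windows of Nfkb2, 2 of which share a match. By gene, 5 of 8 had a match, beside 9.55% of all genes in the table. The set was chosen by name and includes known targets of NF-κB, so nothing is read from these shares. Rela, Nfkbib and Birc3 had no match, which says only that these letters are not in the window searched. The motif of the TCF and LEF factors through which β-catenin acts, searched as CTTTGAT on both strands, was in none of the 11 windows and in 3.73% of all windows. A match is a stretch of letters and not a measured binding site.

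**Figure D1:**
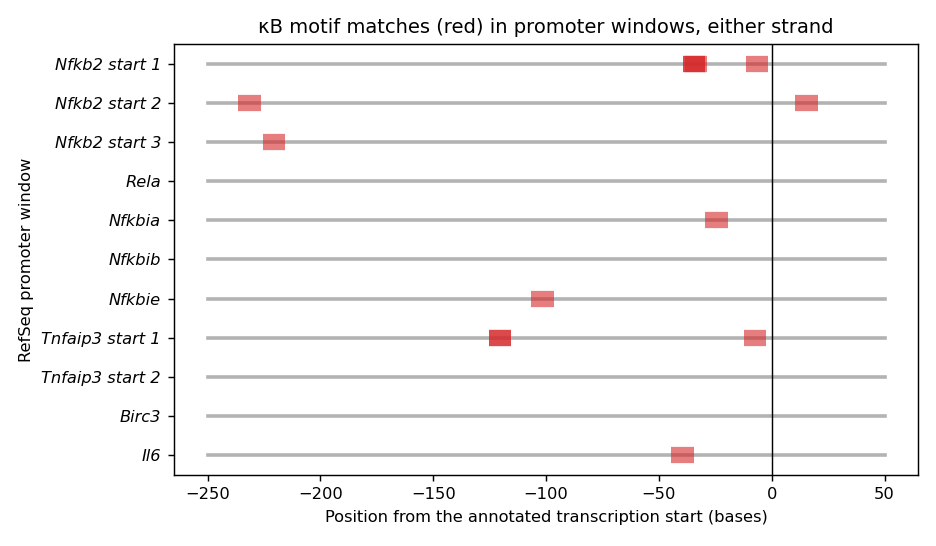
Positions of κB motif matches (red) in the RefSeq promoter windows of the 8 genes that had one. The horizontal axis is the distance in bases from the annotated transcription start (vertical line), each grey line is 1 window of 300 bases, and darker red marks matches that overlap. Matches are drawn in 7 of the 11 windows. Those of Nfkbia and Il6, the proximal match of Tnfaip3 and some of those of Nfkb2 lie within 50 bases of a start.

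Among the 10 genes, the highest ratio of CHIR99021-treated over control cells was that of Il6, 1.53 at its brightest probe, and the lowest was that of Nfkbie, 0.812. The subunits Nfkb1, Rela and Relb had ratios of 1.00 to 1.04, and Nfkb2, Birc3, Nfkbia, Tnfaip3 and Nfkbib lay between, at 1.16 to 1.32. Intensities are given below as deposited, after background subtraction, and each ratio was taken after every array was divided by its own 75th percentile, 486.7 in control and 469.2 in CHIR99021-treated cells. The log2 ratio carries the error that the scanner software gives for its spots, which was 0.20 to 0.29 for these probes. The Z-score states how many SD a log2 ratio lay from the mean of the 500 probes nearest in mean signal. Of the 21 probes, 10 had a log2 ratio within 1 such error of 0, 8 were between 1 and 2 errors away and 3 were more than 2 errors away, namely both probes of Il6 and a probe of Nfkbib. Among 282 probes printed 10 times on each array the SD of the log2 ratio had a median of 0.03, which covers the error between spots alone. Neither error includes the spread between cultures.

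**Figure D2:**
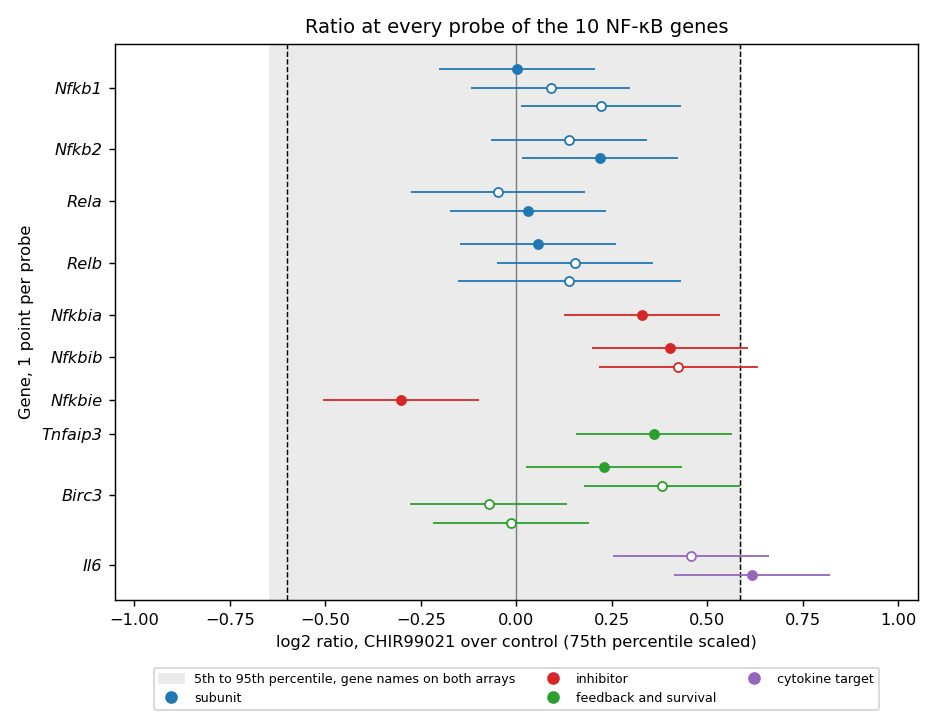
log2 ratio of CHIR99021-treated over control cells (horizontal axis) at every probe of the 10 genes, 1 array per condition. Filled points are the brightest probe of a gene, open points its other probes, and bars are 1 scanner error on either side; the grey band runs from the 5th to the 95th percentile (-0.65 to 0.59) of the 16871 gene names measured on both arrays, and dashed lines mark ratios of 0.66 and 1.5. Apart from the brighter Il6 probe at 0.62, every point lies inside the band.

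Il6 encodes interleukin-6, a cytokine of inflammation and a classical target of NF-κB. Its brighter probe (A_55_P1997756, chr5:30346367-30346426, plus strand, mm9) read 5679 in control and 8393 in CHIR99021-treated cells, a log2 ratio of 0.62 (Z-score 1.67). A probe just upstream of it (A_55_P2733612, chr5:30346159-30346218) read 2950 and 3904, a ratio of 1.37 and a log2 ratio of 0.46. Both probes were brighter after CHIR99021, and only the brighter one passed a ratio of 1.5. The brighter probe lay in row 286 and the other in row 62 of 384 on the array. The part of this position in the values was not tested.

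Nfkbia encodes IκBα, the fast inhibitor that NF-κB itself induces. Its single probe (A_51_P295192, chr12:56590945-56591440, minus strand) read 13633 in control and 16518 in CHIR99021-treated cells, a ratio of 1.26 and a log2 ratio of 0.33. Nfkbib encodes IκBβ, which is degraded and replaced more slowly. Its probes read 1906 and 2427 at chr7:29544167-29544848 and 274.5 and 355.0 at chr7:29546905-29547054, with ratios of 1.32 and 1.34. The 2 probes thus gave nearly the same ratio at very different intensities. Nfkbie encodes IκBε, an inhibitor that acts late in the response. Its single probe (A_51_P235123, chr17:45700000-45700059, plus strand) read 1541 in control and 1206 in CHIR99021-treated cells, a log2 ratio of -0.30 (Z-score -1.07). The 3 inhibitors therefore did not lie on the same side of 1, and none of their ratios passed 0.66 or 1.5.

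Tnfaip3 encodes A20, a ubiquitin-editing enzyme that shuts off the signal upstream of the IκB kinase. Its single probe (A_55_P2053838, chr10:18720776-18720835, minus strand) read 930.3 in control and 1151 in CHIR99021-treated cells, a ratio of 1.28 and a log2 ratio of 0.36. Birc3 encodes cIAP2, a ubiquitin ligase of the TNF receptor complex that limits cell death. Its brightest probe (A_55_P1980287, chr9:7854409-7854468, minus strand) read 2387 and 2695, a ratio of 1.17, and its neighbour at chr9:7856162-7856221 read 573.7 and 720.1, a ratio of 1.30. The other probes of Birc3, nearer to the 5′ end of the gene at chr9:7866193-7866252 and chr9:7868669-7868728, read 568.4 and 520.9 and 1115 and 1064, with ratios of 0.951 and 0.990. The 4 probes of Birc3 thus lay on both sides of 1 and spread over 0.45 on the log2 scale, the widest spread among the 10 genes, so that its direction depends on the probe. Whether these probes measure different transcripts was not tested.

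Nfkb1 encodes p105, the precursor of the p50 subunit. Its brightest probe (A_55_P2745489, chr3:135247898-135247958, minus strand) read 4012 in control and 3868 in CHIR99021-treated cells, a ratio of 1.00 after scaling, and its dimmer probes, at chr3:135254550-135254609 and chr3:135275144-135275203, gave ratios of 1.06 and 1.17 at intensities of 224.1 to 280.1. Nfkb2 encodes p100, the precursor of p52 in the noncanonical branch of the pathway. Its brightest probe (A_55_P2723699, chr19:46386440-46386499, plus strand) read 6294 and 7057, a ratio of 1.16, and the other probe, at chr19:46386146-46386285, read 2685 and 2848, a ratio of 1.10. No probe of the precursor genes passed a ratio limit, and the highest log2 ratio of each was 0.22.

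Rela encodes p65, the main activating subunit of the canonical branch. Its brighter probe (A_55_P1974288, chr19:5648070-5648129, plus strand) read 16686 in control and 16418 in CHIR99021-treated cells, a ratio of 1.02, and a dim probe at chr19:5645363-5645529 read 115.4 and 107.5, a ratio of 0.966. Relb encodes the partner of p52 in the noncanonical branch. Its brightest probe (A_51_P389751, chr7:20191722-20191781, minus strand) read 4394 and 4405, a ratio of 1.04, and the probes at chr7:20191939-20191998 and chr7:20203058-20203117 read 849.4 and 911.1 and 47.6 and 50.5, with ratios of 1.11 and 1.10. For Rela and Relb every log2 ratio lay within its scanner error of 0.

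**Figure D3:**
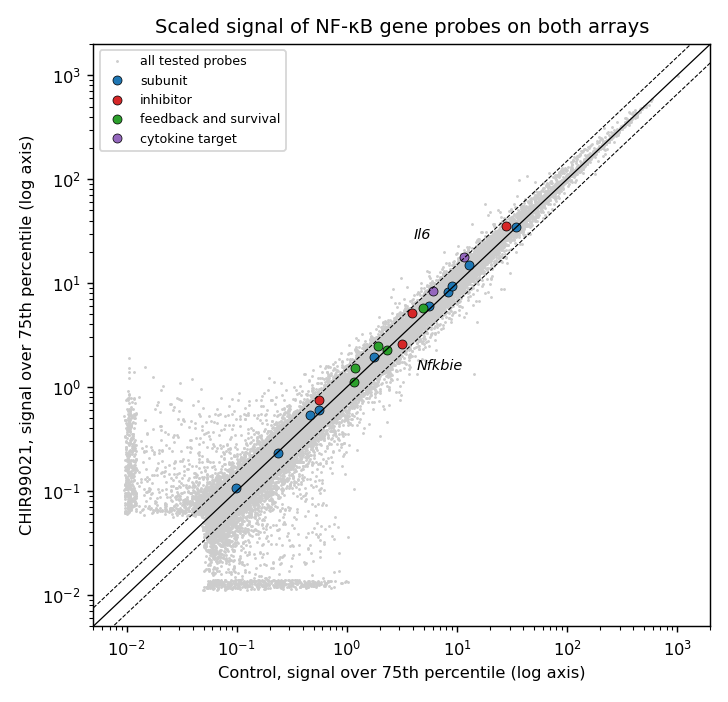
Signal of each probe in control (horizontal axis) against CHIR99021-treated cells (vertical axis), each divided by the 75th percentile of its array, on log axes. Coloured points are the 21 probes of the 10 genes by role and grey points all 28066 tested probes; the solid line marks a ratio of 1 and the dashed lines 0.66 and 1.5. The coloured points follow the solid line over the whole range of signals, with the brighter Il6 probe at the upper dashed line.

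At the brightest probe of each gene, 1 of the 10 genes, Il6, had a ratio of at least 1.5, beside 8.13% of the 18837 gene names, and none had a ratio of at most 0.66, beside 9.7%. Since every probe of the 10 genes was measured on both arrays, the 16890 gene names left when that was required of all probes are a nearer comparison, and of these 5.08% had a ratio of at least 1.5 and 5.77% of at most 0.66. With 10 genes, a single gene past the limit is not read as a difference from either share. With a Z-score of at least 2 or at most -2 required as well, none of the 10 was higher, beside 3.16% of gene names, and none was lower, beside 3.2%. A ratio above 1 was found for 9 of the 10 genes (6 to 9 under other scalings), beside 53.4% of gene names. The median log2 ratio was 0.22 for the 10 genes and 0.02 for all gene names. By probe, 17 of the 21 lay above 1 and 4 below. All probes lay above 1 for 7 genes, the only probe of Nfkbie lay below it, and those of Rela and Birc3 lay on both sides. These counts describe a pair of arrays and were not tested.

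The count of genes above 1 depended on how the arrays were brought to the same scale. Over 8 other ways to scale or correct the arrays, the ratio of Il6 ran from 1.43 to 1.63 and passed 1.5 under 2 of them, scaling by the median of all probes and by the spike-in controls. Among these 8, quantile normalization and the authors' own normalized values gave nearly the same ratios. Nfkbie stayed below 1 throughout, from 0.783 to 0.862. Nfkbib (1.27 to 1.40), Tnfaip3 (1.24 to 1.36), Nfkbia (1.16 to 1.34), Birc3 (1.12 to 1.24) and Nfkb2 (1.10 to 1.24) stayed above 1 at the brightest probe. Nfkb1 (0.955 to 1.06), Rela (0.943 to 1.08) and Relb (0.992 to 1.10) fell on either side of 1, so that no direction can be given for these subunits.

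**Figure D4:**
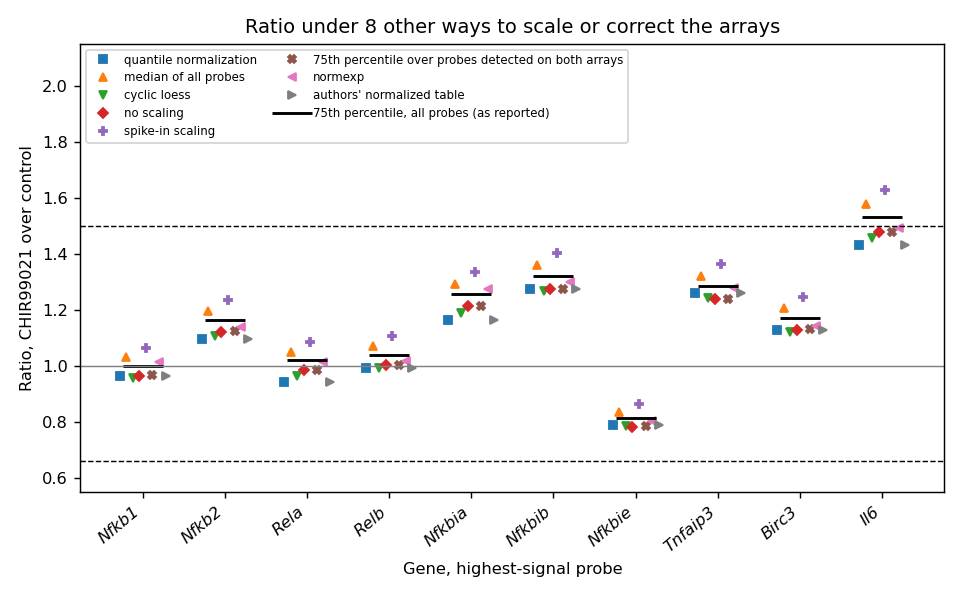
Ratio of CHIR99021-treated over control cells (vertical axis, linear) at the brightest probe of each gene under 8 other ways to scale or correct the arrays (symbols) and as reported (black bars). Dashed lines mark 0.66 and 1.5 and the grey line 1. Il6 lies at 1.43 to 1.63 and Nfkbie at 0.783 to 0.862, whereas Nfkb1, Rela and Relb straddle 1.

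Further genes of the pathway were listed by role from textbook knowledge. Of 105 genes, 92 were tested, of which 6 had a ratio of at least 1.5 and 3 a ratio of at most 0.66, and 42 lay above 1. These are shares of 6.52% and 3.26%, beside 8.13% and 9.7% of all gene names. Of the 92 genes, 90 were measured on both arrays, with 6 at 1.5 or more and 2 at 0.66 or less, beside 5.08% and 5.77% of the gene names so measured, and no difference is read from these shares. The median log2 ratio of the 92 genes was -0.01, beside 0.02 over all gene names. The remaining subunit Rel, at 1287 in control and 1500 in CHIR99021-treated cells, had a ratio of 1.21. The atypical IκB proteins Nfkbid, Nfkbiz, Bcl3 and Nfkbil1 lay between 0.929 and 1.27. None of 11 genes for kinases of the pathway and their regulatory subunits passed either limit. Chuk and Ikbkb, the catalytic subunits of the IκB kinase, and Ikbkg, its regulatory subunit, had ratios of 0.996, 1.12 and 0.971.

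Among 13 tested negative regulators, 2 had a ratio of at most 0.66 and 1 of at least 1.5, with 3 above 1 in all and a median log2 ratio of -0.17. These shares of 15.4%, 7.69% and 23.1% stand beside 9.7%, 8.13% and 53.4% of all gene names, and with 13 genes nothing is read from them. Cyld, a deubiquitinase that removes activating ubiquitin chains, read 1219 in control and 622.8 in CHIR99021-treated cells, a ratio of 0.530 (Z-score -2.41), and its 3 tested probes lay between 0.530 and 0.625. Pdlim2, a ligase that promotes the breakdown of p65, read 4329 and 2127, a ratio of 0.510 (Z-score -3.21). Tollip, which restrains signaling from Toll-like and interleukin-1 receptors, read 1553 and 2415, a ratio of 1.61 (Z-score 2.06). The A20-binding protein gene Tnip1 had a ratio of 0.701 and did not pass the limit of 0.66. The negative regulators thus differed in direction from one another, and Cyld and Pdlim2 lay opposite to Tnfaip3.

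Of 18 adaptors and ubiquitin ligases, 1 had a ratio of at least 1.5, a share of 5.56% beside 8.13% of all gene names. This gene, Traf6, the ligase that links interleukin-1 and Toll-like receptors to the pathway, had a ratio of 1.57, at 161.8 in control and 244.3 in CHIR99021-treated cells. Its 3 probes measured on both arrays lay between 1.43 and 1.57, and the brightest lay on an uneven spot of the control array. Btrc, the ligase subunit that recognises IκB and also β-catenin, had a ratio of 0.686. Of 11 tested receptors only Cd40, a TNF receptor family member of immune cells, passed a limit, a share of 9.09% beside 9.7% of all gene names at or below 0.66. It read 203.9 on an uneven spot of the control array and was not well above background after CHIR99021, which gives at least 7.47-fold lower. The TNF receptor genes Tnfrsf1a and Tnfrsf1b had ratios of 1.02 and 1.21. Of 8 ligands, 2 were tested, and the dim Tnf read 79.6 and 76.0. Il1a, Il1b, Lta, Ltb, Tnfsf11 and Tnfsf13b were not well above background on either array.

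Target genes of NF-κB other than those named above did not share a direction. Of 32 tested, 4 had a ratio of at least 1.5, none of at most 0.66, and 14 lay above 1, with a median log2 ratio of -0.05. The shares past the limits, 12.5% and 0%, stand beside 8.13% and 9.7% of all gene names, and the 43.75% above 1 beside 53.4%. The 31 targets measured on both arrays held the same 4 and none at 0.66 or less, beside 5.08% and 5.77% of the gene names so measured. Ccl20, a chemokine for CCR6-bearing cells, read 160.6 in control and 472.6 in CHIR99021-treated cells, a ratio of 3.05. Ier3, an early response gene of cell survival, read 4926 and 10718, a ratio of 2.26. Both also met the Z-score limit, at 2.50 for Ccl20 and 3.60 for Ier3. Ptgs2, the inducible cyclooxygenase, read 1524 and 2273, a ratio of 1.55, and the dim Csf3, a granulocyte growth factor, read 28.5 and 48.8, a ratio of 1.78. Among targets that passed no limit, the ratio was 1.42 for the chemokine gene Cxcl10, 1.14 for Cxcl1, 1.03 for Ccl2, 0.916 for Lcn2 and 0.718 for Csf1. The adhesion gene Icam1 was well above background on neither array, and Vcam1 had a ratio of 0.731.

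In the array layout, the brightest probes of Traf6, Cd40, Pdlim2, Csf3, Ier3 and Ccl20 lay past the middle row, 192, as did 52.1% of all tested probes, and those of Cyld, Tollip and Ptgs2 lay before it. The part of this position in the ratios was not tested.

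**Figure D5:**
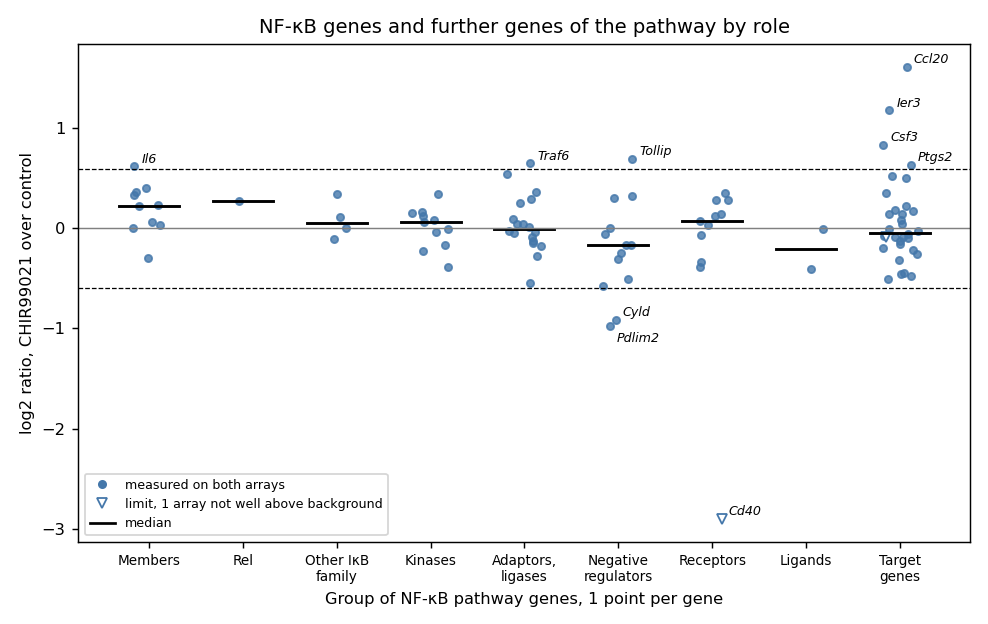
log2 ratio of CHIR99021-treated over control cells (vertical axis) for the 10 genes of the set (Members) and 92 further tested genes of the pathway by role, 1 point per gene at its brightest probe. Black bars are medians, dashed lines mark ratios of 0.66 and 1.5, and open triangles are limits where an array was not well above background; genes past a ratio limit are named. Ccl20 and Ier3 are the highest points, and apart from Cd40, Pdlim2 and Cyld no gene lies below the lower dashed line.

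Across all tested gene names with a RefSeq window, the 1335 with a κB match had a median log2 ratio of 0.01 and the 9528 without one 0.02. A ratio of at least 1.5 was found for 5.99% of the former and 7.61% of the latter, and a ratio of at most 0.66 for 9.59% and 9.16%. Of the 5 genes of the set with a match, Il6, Tnfaip3, Nfkbia and Nfkb2 lay above 1 and Nfkbie below it, and of the 3 without one, Nfkbib and Birc3 had ratios of 1.32 and 1.17 and Rela 1.02. These shares and ratios are a description of a pair of arrays, and no binding was measured.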

How the data were processed

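The authors labelled total RNA with Cy3, hybridised it to Agilent mouse arrays and deposited the intensity of each spot from Feature Extraction (10.7.1.1 in the file headers, 9.5.1.1 in the labels), background-subtracted and not normalized between arrays, with flags for spots well above background (other values, per the file headers). They also deposited a table of normalized intensities, whose sorted columns are equal at 99.7% of positions and whose method is not named. It served as an alternative. For the 10 genes its ratios were nearly those of quantile normalization (1.43 for Il6 in both), so these alternatives are not independent. The authors' table held no column of values besides those of the arrays.

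Control spots and outlier spots were left out, spots of a probe were averaged, and the 75th percentile of each array was subtracted from its log2 intensities (Python 3.11.15, with pandas 2.3.3 and numpy 2.4.6). A probe was kept if well above background in either condition, and the 28066 such probes were read against ratios of 0.66 and 1.5 and Z-scores of -2 and 2. A gene was represented by the probe with the highest mean signal. Where an array was not well above background, the fold is a limit, taken against the dimmest signal still well above background there or the signal of the probe itself, whichever was higher. An uneven spot had a pixel variation above the 99th percentile of its array. The calls were also run on simulated data, but no outcome of that run is given here. It is therefore not read as a check on the ratios or calls reported above. Alternatives were other scalings, normexp with an offset of 50 and cyclic loess (limma 3.58.1, R 4.3.3), other filters and probe rules, and other Z-scores. Figures were drawn with matplotlib 3.10.9.

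The genes named were all 10 genes of the set with every probe, and of the further pathway genes those past a ratio limit; others were named after their values were seen. The set and the lists were chosen with earlier results of these data known. Coordinates of probes are those of the files in mm9, and their exons were not analysed here. The number of arrays limits the precision.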

Additional observations from a re-analysis of the deposited data

How the results depend on the processing

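The median log2 ratio of the 10 genes was above 0 under each of the 16 alternatives that give ratios, beside 0.22 as reported, and the filters on dim probes, the floor and the removal of uneven spots left it at 0.22 because they touch no probe of these genes. Without the filter the median of all gene names was 0.18, near that of the 10 genes, beside 0.02 as reported. That setting adds gene names with no probe well above background on either array, whereas every probe of the 10 genes was well above it on both. With that required of all probes, the median of the 16890 gene names left was 0.03. The median of the 10 genes was 0.15 under quantile normalization, 0.16 under cyclic loess, 0.17 without scaling and 0.17 with the percentile taken over probes detected in both conditions. It was 0.19 under normexp and 0.15 in the authors' normalized table. In each of these settings 0 genes had a ratio of at least 1.5. In the same order, the median of all gene names was -0.01, -0.02, -0.03, -0.03, 0.02 and -0.01, beside 0.02 as reported. The median of the 10 genes was 0.26 under median scaling and 0.31 under spike-in scaling. These moved the median of all gene names to 0.07 and 0.11, and Il6 passed 1.5 in both. With the mean over probes the median of the set was 0.15, and with the probe of lowest ratio 0.10. In the earlier rows alone (9 genes, no probe of Nfkbie) it was 0.33. Each of these had 0 genes at 1.5 or more. With the probe of highest ratio the median of the set was 0.28. No gene had a ratio of at most 0.66 under any alternative. With a Z-score from the median and the median absolute deviation, 1 gene, Il6, met both criteria. For single genes, 90 of 159 values moved by more than the error between repeated spots. No paired analysis was possible because only 1 array per group exists. Dim probes, such as those of Relb and Rela under an intensity of 120, carry the largest errors.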
